A study of Sus scrofa with 6 samples.

Results

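Transcript usage was examined for 6 genes, PAPOLA, MGRN1, PES1, FAM136A, PHF11 and GATAD2B, in single oocytes of the pig at germinal vesicle stage, when meiosis is still arrested. Growing oocytes generally reduce the stain brilliant cresyl blue (BCB) to a colourless form, and oocytes that keep the colour, called BCB-positive, are usually taken as fully grown. The 3 BCB-negative and 3 BCB-positive oocytes were drawn from follicles of 3 to 6 mm, carried at least 3 layers of cumulus cells on collection, had no maturation culture, and were stripped of cumulus cells and of the zona pellucida. Each library is 1 oocyte, reverse transcribed from a poly(dT) primer of 24 nt, with the product amplified by PCR. No animal or culture is named for any oocyte, so each class stood as 1 sample of 3 cells, differences were described without a test, and differences between animals and between BCB classes cannot be told apart.

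The 6 genes were picked from the 19300 genes of the series for their large differences in transcript usage between the classes. A share here is the FPKM of a transcript (fragments scaled for transcript length and for library size) as a percentage of the summed FPKM of its gene in that oocyte. The shares therefore describe how the genes were chosen and support nothing beyond that. All 6 genes were found by gene ID, with 17 transcripts listed of 26116 in the series, and all 6 were among the 1956 genes that reached 5 FPKM in each of the oocytes and had 2 or more transcripts listed. In 69 of those 1956 genes, or 3.53%, a transcript share was ordered (all 3 oocytes of a class above all 3 of the other) with class means at least 20 percentage points apart. The 6 genes took places 1 and 3 to 7 by the size of this difference, from 73.5 points for PAPOLA to 60.6 points for GATAD2B. Place 2 belonged to a gene without a symbol, at 69.4 points, and the next gene below GATAD2B was BNIP1 at 55.5 points.

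A gene can give several mature RNAs through other start sites, splice choices or poly(A) sites, and their proteins or untranslated regions can differ. A fully grown oocyte makes little new RNA and relies on stored transcripts, whose translation is set largely by the length of the poly(A) tail. PAPOLA is poly(A) polymerase alpha, which adds tails to RNA. MGRN1 is mahogunin, a ubiquitin ligase that acts on the endosomal sorting protein TSG101. PES1 is pescadillo, which with BOP1 and WDR12 forms the PeBoW complex of large ribosomal subunit assembly. FAM136A is a conserved mitochondrial protein, PHF11 a PHD finger protein linked to transcription in immune cells, and GATAD2B a subunit of the NuRD chromatin remodelling and deacetylase complex.

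The libraries held 7122749 to 9238987 expected counts. BCB-positive oocyte 3 stood apart, with a mean Pearson correlation of log2(FPKM + 1) with the other oocytes of 0.874 against 0.905 to 0.915. Leaving it out, the mean share of the favoured transcript differed by 76.5, 57.1, 68.0, 57.4, 61.7 and 77.8 points in PAPOLA, MGRN1, PES1, FAM136A, PHF11 and GATAD2B. Oocyte markers were matched for 10 of 12 genes, summing to 25619 to 34913 FPKM in BCB-negative and 16492 to 31344 FPKM in BCB-positive oocytes. Most of this was ZP3, KPNA7 and ZP4, averaging 11426, 8246 and 5380 FPKM over all oocytes. The oocyte label fitted these abundant markers, but DAZL and NLRP5 averaged only 2.8 and 1.06 FPKM. Of 12 cumulus and granulosa markers 8 were matched, summing to 132 to 240 FPKM and 109 to 220 FPKM, nearly all of it KITLG. The aromatase gene CYP19A1 averaged 0.02 and 0.07 FPKM. Blood and immune markers (2 of 6 matched) summed to at most 1.65 FPKM, and theca and stroma markers (4 of 6) to at most 3.33 FPKM.

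The working description of these genes as isoform switches held fully for 2 of the 6. For PAPOLA and MGRN1, a single transcript was the most abundant in all 3 BCB-negative oocytes and another in all 3 BCB-positive oocytes. In each of the other 4 genes a single oocyte had the transcript of the other class as its most abundant. It was BCB-negative oocyte 1 for PES1 and PHF11, BCB-positive oocyte 1 for FAM136A and BCB-positive oocyte 3 for GATAD2B. The transcript of the BCB-positive class thus led in 2, 0 and 0 of the 6 genes in BCB-negative oocytes 1, 2 and 3, and in 5, 6 and 5 genes in BCB-positive oocytes 1, 2 and 3.

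**Figure D1:**
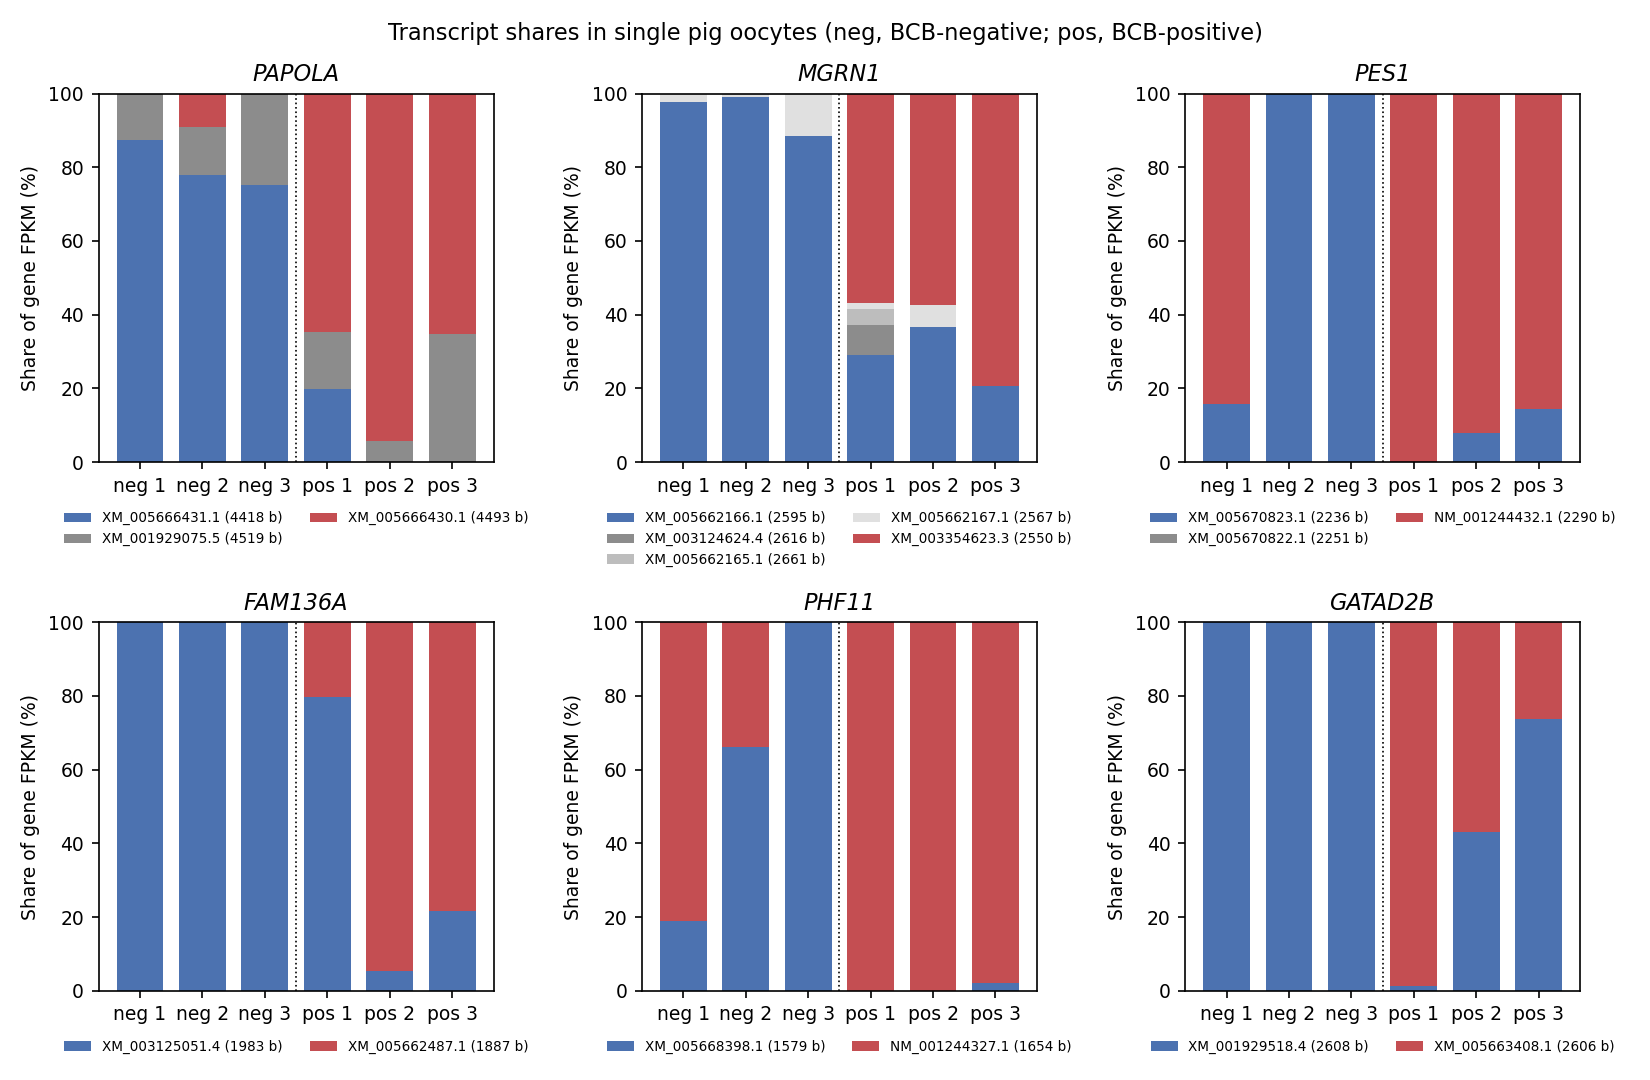
Stacked bars give the share of each listed transcript in the FPKM of its gene (y axis, percent) in each oocyte (x axis; neg, BCB-negative; pos, BCB-positive). Blue is the transcript with the lower and red the one with the higher share in BCB-positive oocytes, and greys are the others. In PAPOLA and MGRN1 the leading colour differs between the classes in all 6 oocytes, while PES1 and PHF11 are mostly red in BCB-negative oocyte 1.

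PAPOLA, the poly(A) polymerase, had the largest difference. Its 4418-base transcript (XM_005666431.1) made up 87.4%, 77.8% and 75.3% of the gene in BCB-negative oocytes 1, 2 and 3, and 19.9%, 0% and 0% in BCB-positive oocytes 1, 2 and 3. The 4493-base transcript (XM_005666430.1) was at 0%, 9.02% and 0% in the BCB-negative and at 64.6%, 94.4% and 65.3% in the BCB-positive oocytes. The 2 classes lay 55.6 points apart at their nearest oocytes for the 4493-base transcript, and its spread inside the classes was 9.02 and 29.7 points. As PAPOLA was chosen for this difference, these values only describe it. Class means of that share were 3.01% ± 5.21 (SD, n = 3) and 74.8% ± 17.0 (SD, n = 3). The longest PAPOLA transcript, of 4519 bases, overlapped between the classes, at 12.6% to 24.7% against 5.65% to 34.7%.

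The estimates for PAPOLA rested on 494 to 1141 expected counts per oocyte. An expected count is an estimate that divides reads among transcripts they fit equally well. Absence of the 4493-base transcript in BCB-negative oocytes 1 and 3 allows a share of counts up to 0.477% and 0.570%, taking 3 counts as the limit. Absence of the 4418-base transcript in BCB-positive oocytes 2 and 3 allows 0.607% and 0.263%. Such limits, and the intervals below, cover counting error only. They do not cover the error of dividing reads between transcripts, and reads of amplified cDNA without molecular identifiers are not independent molecules.

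MGRN1, the ubiquitin ligase, had the smallest pooled SD of the favoured transcript's share among the 6 genes, 9.07 points, though FAM136A and GATAD2B did not vary among BCB-negative oocytes and PHF11 hardly among BCB-positive ones. Its 2595-base transcript (XM_005662166.1) held 97.8%, 98.9% and 88.6% in BCB-negative and 28.9%, 36.7% and 20.7% in BCB-positive oocytes. The 2550-base transcript (XM_003354623.3) was listed in no BCB-negative oocyte and held 56.7%, 57.4% and 79.3% in BCB-positive oocytes. Its mean of 64.5% ± 12.8 (SD, n = 3) in BCB-positive oocytes came from 86.1 to 212 expected counts. The limit on its share of counts was 1.23%, 1.05% and 1.28% in BCB-negative oocytes 1, 2 and 3. Of the other 3 transcripts, those of 2616 and 2661 bases were listed only in BCB-positive oocyte 1, at 8.33% and 4.40%. The 2567-base transcript overlapped between the classes, at up to 11.4%.

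PES1, the pescadillo gene, was ordered by a margin of 1.5 points. Its 2290-base transcript (NM_001244432.1) made up 84.1%, 0% and 0% in BCB-negative oocytes 1, 2 and 3, and 100%, 92.2% and 85.6% in the BCB-positive oocytes. BCB-negative oocyte 1 therefore resembled the BCB-positive oocytes and not its own class. As shares of counts, 84.5% in BCB-negative oocyte 1 (95% Wilson interval 79.3% to 88.5%, of 240 counts) and 86.0% in BCB-positive oocyte 3 (82.2% to 89.0%, of 400 counts) could not be separated. The spread inside the BCB-negative class, 84.1 points, exceeded the difference of the class means, 64.6 points (pooled SD 34.7). Nearly all of the remainder was the 2236-base transcript (XM_005670823.1), the only one listed in BCB-negative oocytes 2 and 3. Those estimates used 87 and 142 counts, which allow up to 3.45% and 2.11% for the 2290-base transcript. The 2251-base PES1 transcript was listed in BCB-positive oocyte 3 alone, at 0.12 expected counts.

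PHF11, the PHD finger gene, had the same odd oocyte. Its 1654-base transcript (NM_001244327.1) held 81.1%, 33.8% and 0% in BCB-negative oocytes 1, 2 and 3, a spread over most of the scale. In BCB-positive oocytes 1, 2 and 3 it held 100%, 100% and 97.9%. The classes were 16.8 points apart at their nearest oocytes. The share of counts in BCB-negative oocyte 1 was 81.8% (95% Wilson interval 71.2% to 89.1%) of only 70 counts. The interval of BCB-positive oocyte 3 was 96.1% to 99.0%, of 402 counts. As PHF11 was chosen for these shares, no separation of the classes is read from the intervals. The 1579-base transcript (XM_005668398.1) was the sole one in BCB-negative oocyte 3 and the minor one in BCB-negative oocyte 1. PHF11 was thus variable among BCB-negative and nearly uniform among BCB-positive oocytes, with SDs of 40.7 and 1.21 points (n = 3 each).

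FAM136A and GATAD2B showed the reverse arrangement, uniform in BCB-negative and variable in BCB-positive oocytes. For the mitochondrial gene FAM136A, the 1983-base transcript (XM_003125051.4) was the only one listed in all 3 BCB-negative oocytes, from 235, 311 and 183 counts. The 1887-base transcript (XM_005662487.1) appeared in BCB-positive oocytes 1, 2 and 3 at 20.2%, 94.6% and 78.4%, a mean of 64.4% ± 39.1 (SD, n = 3). The limit on its share of counts in BCB-negative oocytes was 1.28%, 0.965% and 1.64%. In BCB-positive oocyte 1 the 95% Wilson interval was 14.2% to 25.9%. As FAM136A was chosen for these shares, the gap between these values adds no support. BCB-positive oocyte 1 nevertheless lay nearer to the BCB-negative oocytes than to the other oocytes of its class.

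For GATAD2B, the NuRD subunit, the 2608-base transcript (XM_001929518.4) was the only one listed in the BCB-negative oocytes, from 207, 232 and 359 counts. The 2606-base transcript (XM_005663408.1) held 98.7%, 56.8% and 26.3% in BCB-positive oocytes 1, 2 and 3. The BCB-positive oocytes thus differed among themselves by 72.4 points, more than the class means did (60.6 points, pooled SD 25.7). The 2 transcripts differ in length by 2 bases. The sequence that separates them was not analysed here, and expected counts do not show how many reads did. The limit on the share of counts of the 2606-base transcript in BCB-negative oocytes was 1.45%, 1.29% and 0.836%.

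The FPKM of the single transcripts are the values the shares were made from, so they describe the same choice of genes and add no support to it. In PAPOLA, MGRN1, FAM136A and PHF11, the FPKM of both exchanging transcripts did not overlap between the classes. How often the same holds in other genes was not counted, so nothing is read from how many of these genes show it. PAPOLA's 4418-base transcript stood at 16.5, 15.0 and 12.7 FPKM in the BCB-negative class and 3.57, 0 and 0 FPKM in the BCB-positive class. Its 4493-base transcript stood at 0, 1.74 and 0 FPKM and at 11.6, 12.9 and 18.1 FPKM. The class means of the first were 14.7 and 1.19 FPKM and those of the second 0.58 and 14.2 FPKM, near mirror images. In MGRN1 the 2595-base transcript had 12.4, 14.6 and 11.6 FPKM in the BCB-negative class and 3.09, 2.71 and 2.40 FPKM in the other. The 2550-base transcript reached 6.06, 4.24 and 9.17 FPKM in BCB-positive oocytes number 1, 2 and 3, less than the 2595-base one had in the BCB-negative oocytes.

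FAM136A's 1983-base transcript had 16.1, 21.2 and 13.4 FPKM in the BCB-negative class and 9.31, 1.27 and 4.51 FPKM in the other. Its 1887-base transcript had 2.36, 22.1 and 16.4 FPKM in BCB-positive oocytes number 1, 2 and 3, with the first of these far below the others. That oocyte had the most of the 1983-base transcript in its class. PHF11's 1654-base transcript had 4.75, 3.47 and 0 FPKM in the BCB-negative class and 16.0, 12.3 and 26.6 FPKM in the other. Its 1579-base transcript had 1.11, 6.80 and 14.7 FPKM against 0, 0 and 0.57 FPKM, the lowest BCB-negative value being near the highest BCB-positive one.

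In GATAD2B 1 of the 2 transcripts overlapped between the classes by abundance, and in PES1 both did. GATAD2B's 2608-base transcript was at 10.7, 11.9 and 19.8 FPKM in the BCB-negative class and 0.21, 11.8 and 10.5 FPKM in the BCB-positive class, so BCB-positive oocyte 2 lay inside the BCB-negative range. Its 2606-base transcript did not overlap, being listed in no BCB-negative oocyte, with values of 16.4, 15.4 and 3.73 FPKM in the other class. PES1's 2290-base transcript stood at 12.0 FPKM in BCB-negative oocyte 1, above the 11.6 FPKM of BCB-positive oocyte 1.

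**Figure D2:**
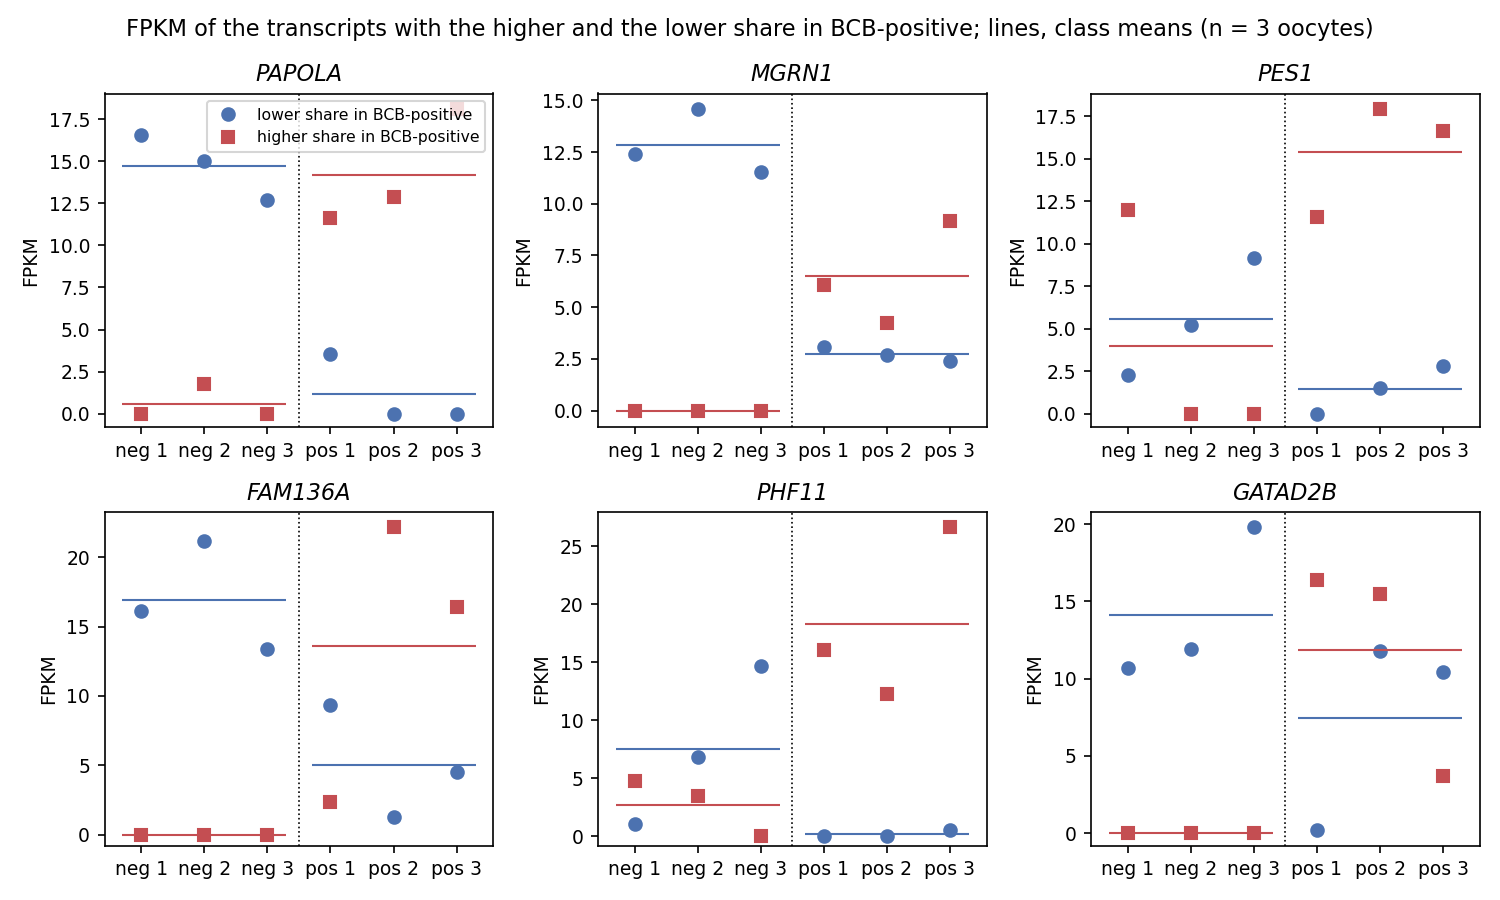
Points give the FPKM (y axis) of the transcript with the lower (blue circles) and the higher (red squares) share in BCB-positive oocytes, for each oocyte (x axis), with lines at the class means of 3 oocytes. Both transcripts separate the classes in PAPOLA, MGRN1, FAM136A and PHF11, which was not counted in other genes. In PES1 the red square of BCB-negative oocyte 1, at 12.0 FPKM, lies among those of the BCB-positive oocytes.

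Gene totals, a measure the choice of genes did not use, separated the classes for MGRN1 alone. MGRN1 stood at 12.7, 14.8 and 13.0 FPKM in the BCB-negative class and 10.7, 7.39 and 11.6 FPKM in the BCB-positive class, a difference of -0.43 on the log2(FPKM + 1) scale (pooled SD 0.23). It was -0.26 without BCB-positive oocyte 2. Totals were ordered lower in 4.03% and ordered higher in 7.44% of the 11493 genes whose mean reached 1 FPKM, against 1 and 0 of the 6 genes. None of the 6 was both ordered and at least 1.5-fold apart. Of the 11493 genes, 5.75% were so higher and 2.66% so lower in BCB-positive oocytes. That split of 661 and 306 genes became 522 and 425 with size factors, or 818 and 225 when each oocyte's FPKM were brought to the same sum. PAPOLA and FAM136A differed by 0.05 (pooled SD 0.35) and 0.10 (pooled SD 0.42), each less than its spread. The sign for PAPOLA turned under size factor scaling, and for both genes it turned when some single oocytes were left out.

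PES1 and PHF11 had higher mean totals in BCB-positive oocytes, with overlap. PES1 was at 14.2, 5.23 and 9.17 FPKM against 11.6, 19.5 and 19.4 FPKM, a log2 difference of 0.81 (pooled SD 0.54). It was 0.48 without BCB-negative oocyte 2. PHF11 was at 5.86, 10.3 and 14.7 FPKM against 16.0, 12.3 and 27.2 FPKM, a difference of 0.80 (pooled SD 0.58). It was 0.48 without BCB-negative oocyte 1 and 0.49 without BCB-positive oocyte 3. GATAD2B differed by 0.42 (pooled SD 0.46), with totals of 10.7, 11.9 and 19.8 FPKM against 16.6, 27.2 and 14.2 FPKM. Without BCB-positive oocyte 2 that difference was 0.16. The median difference over all 11493 genes was 0.11, with a median pooled SD of 0.54. By mean total, the 6 genes lay between percentiles 55.8 and 65.8 of these genes, so they were of middling abundance.

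**Figure D3:**
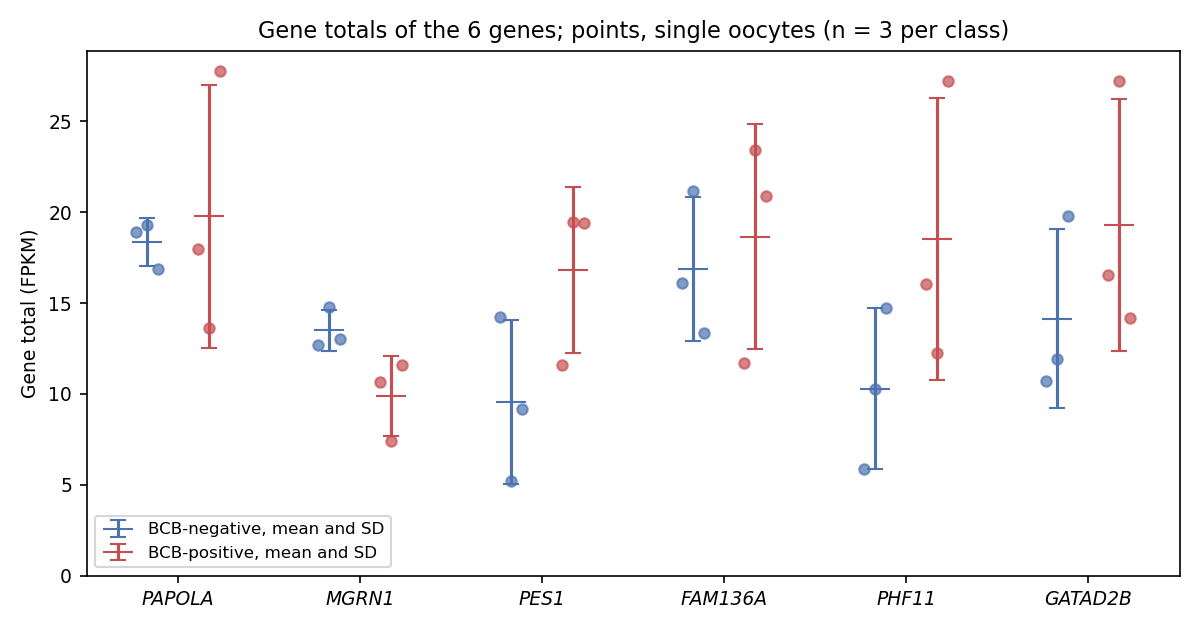
Gene totals in FPKM (y axis) are drawn for the 6 genes (x axis), blue for BCB-negative and red for BCB-positive, with points for single oocytes and bars for the mean and SD of 3. The classes overlap for every gene but MGRN1, whose means were 13.5 and 9.88 FPKM.

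The exchanging transcripts were close in length. The transcript favoured in BCB-positive oocytes was longer by 75, 54 and 75 bases in PAPOLA, PES1 and PHF11, and shorter by 45, 96 and 2 bases in MGRN1, FAM136A and GATAD2B. The gap was below 100 bases in 6 of the 6 genes, in 55.1% of the 69 genes with an ordered difference and in 42.8% of the 1956 genes. In 5 of the 6 it was a multiple of 3, against 43.5% and 40.1%. Where the differing bases lie, in coding sequence or outside it, was not analysed here. No direction by length appeared, with 3 longer and 3 shorter among the 6 genes, and 34 longer, 33 shorter and 2 equal among the 69.

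The share-weighted length of a gene moved by no more than these gaps between any of the oocytes. It moved most in FAM136A, from 1983 bases in every BCB-negative oocyte to 1964, 1892 and 1908 bases in BCB-positive oocytes 1, 2 and 3. For PAPOLA it was 4431, 4438 and 4443 bases in BCB-negative and 4482, 4494 and 4502 bases in BCB-positive oocytes. For GATAD2B it stayed between 2606 and 2608 bases. FPKM shares and shares of counts were accordingly near each other, for instance 64.6% and 64.8% for the 4493-base PAPOLA transcript in BCB-positive oocyte 1.

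**Figure D4:**
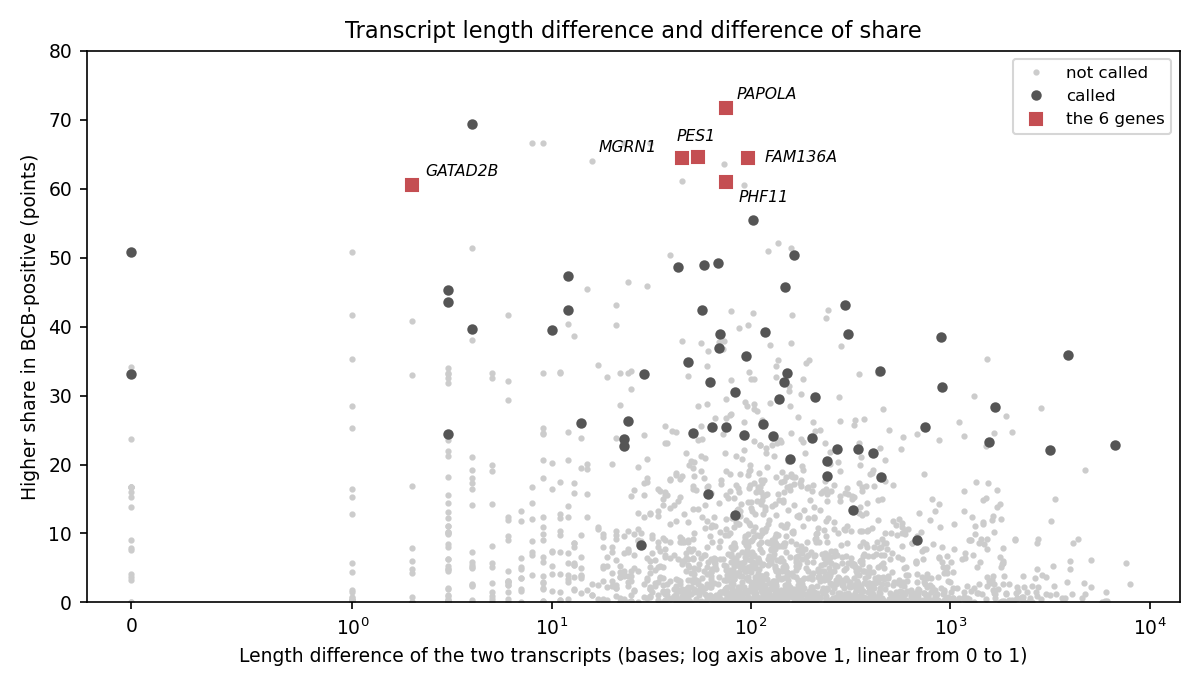
Each point is 1 of the 1956 genes, placed by the length difference between its transcripts whose share was most higher and most lower in BCB-positive oocytes (x axis, bases, log scale above 1 and linear below) and by the higher mean share in BCB-positive oocytes (y axis, percentage points). Grey genes did not meet the ordered 20-point rule, dark ones did, and red squares are the 6 genes, all at gaps under 100 bases.

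Most of the 12 exchanging transcripts were predicted models of the older annotation. Their accessions, ignoring version, were looked up in the RefSeq gene table of the later pig assembly Sscrofa11.1. There 4 of the 12 were still listed, or 33.3%, against 49.3% for the exchanging transcripts of the 69 genes and 53.4% of all transcripts of the 1956 genes. The 4 were the 2290-base PES1, the 1983-base FAM136A and both PHF11 transcripts. PHF11 was thus the only one of the 6 genes whose exchanging transcripts were both retained. For PAPOLA only the 4519-base transcript remained, and for MGRN1 and GATAD2B none of those listed. The later table overlapped none of the 6 genes with another gene.

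Across the 1956 genes, the leading transcript was shared about as often between the classes as within them. Oocytes of the same class shared the most abundant transcript in 85.7% of genes on average over 6 pairs, and oocytes of different classes in 85.9% over 9 pairs. Among the 6 genes the same comparison gave 4 to 6 genes within a class and 0 to 3 between classes, as their choice requires. A most abundant transcript that was constant in each class and differed between them was found in 6 of the 1956 genes, 2 of them PAPOLA and MGRN1. Differences as wide as those of the 6 genes also arose where oocytes overlapped. A mean share at least 60.6 points higher in BCB-positive oocytes occurred in 14 genes, of which 7 were ordered, including the 6, and 7 were not.

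**Figure D5:**
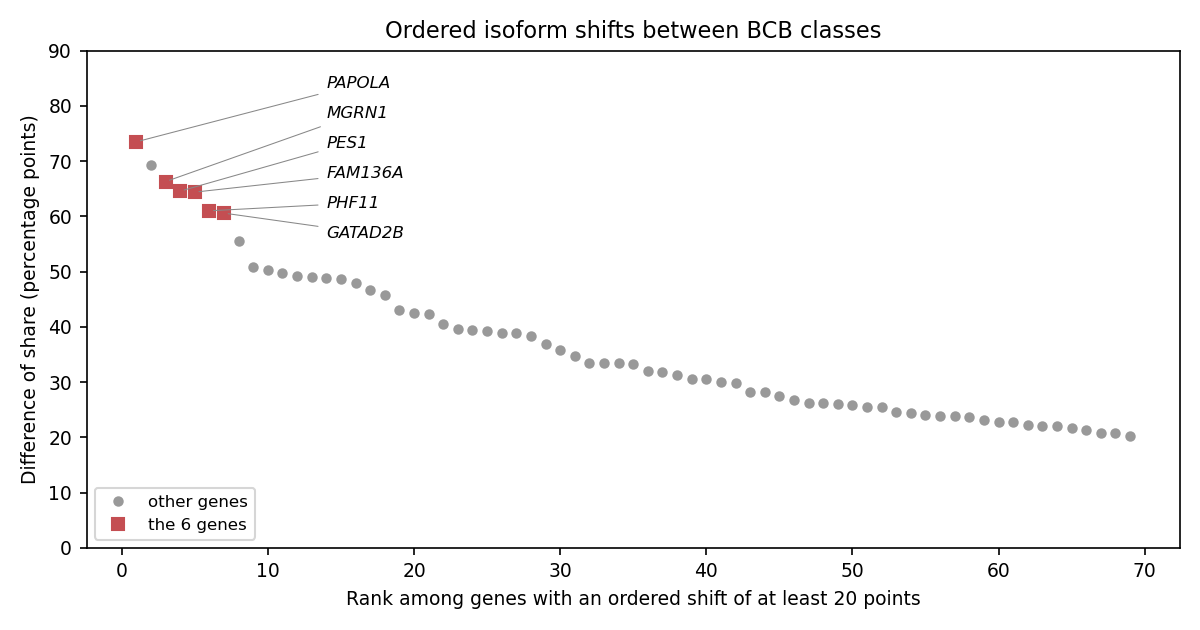
The 69 genes with an ordered difference of at least 20 points are ranked (x axis) by the size of that difference in percentage points (y axis). The 6 genes, red squares, lie between 60.6 and 73.5 points, and the next gene below them is at 55.5 points.

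Oocytes often had nearly all of a gene's FPKM on a single transcript. In 16 of the 36 combinations of gene and oocyte among the 6 genes, or 44.4%, a transcript held at least 95%, close to 43.4% over the 1956 genes and above the 22.0% of the 69 genes with an ordered difference. For the transcript with the largest rise in each gene, the pooled SD of shares was larger in the 6 genes. Its median was 26.7 points against 15.6 over the 69 and 7.42 over all 1956. The 6 were chosen for large differences of share, so nothing is read from this larger SD. Their median expected count was 256 per oocyte, against 352 over the 69 and 560 over the 1956 genes. BCB-positive oocyte 3 had no gene of the 6 with a single listed transcript, while the other 5 oocytes had 1 to 4. That oocyte also had the most transcripts listed in the series, 19889 against 16813 to 18674, and the part of this in its shares was not tested.

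Transcripts of other genes with the most similar shares were sought for the BCB-positive transcript of each gene, by the mean absolute difference over the 6 oocytes. The nearest to PAPOLA belonged to the receptor gene GPR161 and to GGNBP2, at 14.4 and 14.9 points. For MGRN1 they belonged to ILKAP and SCO2, at 11.4 and 12.2 points. SLC35G1 and KLHL20 came closest to PES1, at 6.32 and 6.34 points, with 100%, 0% and 0% in the BCB-negative oocytes. These 2 had 100% in the same BCB-negative oocyte 1 that set PES1 apart, and so were not ordered. HSPBP1 and NF2 were nearest to FAM136A, at 6.55 and 8.83 points, and ST13 and SLC35G1 to PHF11, at 8.97 and 9.12 points. KDM3A came within 9.37 points of GATAD2B.

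Few genes of the related pathways differed in total, and shares could be compared in few of them. In the lists for PAPOLA, MGRN1, PES1, FAM136A, GATAD2B and PHF11, 3, 2, 5, 4, 6 and 2 genes had shares to compare, these 6 included. The 6 were the ones with an ordered 20-point difference, and with a background of 3.53% nothing is read from its absence in so few others. The counts by total below stand beside 5.75% higher and 2.66% lower over all 11493 genes, and at 0 to 2 genes a list they are too small to set a list apart. List medians were not recomputed without BCB-positive oocyte 3, so they are not read as a shift of a list. Around PAPOLA, 19 genes of 3′ end formation and tail synthesis were compared, of which 2 were ordered and at least 1.5-fold higher in BCB-positive oocytes (background 5.75%) and 0 lower (2.66%). CSTF3, of the cleavage stimulation factor, stood at 7.10, 5.17 and 6.61 FPKM against 8.13, 10.18 and 18.6 FPKM. RBBP6, a factor of 3′ end cleavage, stood at 1.85, 1.16 and 1.38 FPKM against 4.10, 5.3 and 13.05 FPKM, a log2 difference of 1.65 (pooled SD 0.56). The differences without BCB-positive oocyte 3 were 0.48 for CSTF3, below 1.5-fold, and 1.21 for RBBP6. The list's median difference was 0.26, beside 0.11 for all genes.

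Around MGRN1, 11 genes of its pathway and of endosomal sorting were compared, with 2 higher (background 5.75%) and 0 lower (2.66%) and a median difference of 0.14. The 2 were STAM and STAM2, which bind ubiquitinated cargo at endosomes. STAM was low, at 0.72, 0 and 0.27 FPKM against 1.16, 2.47 and 8.86 FPKM. STAM2 was at 3.22, 3.20 and 0 FPKM against 4.46, 4.91 and 13.0 FPKM. Both remained 1.5-fold higher without BCB-positive oocyte 3. RNF157, the closest relative of MGRN1 and looked at after its values were seen, differed in transcript share by 0.08 points.

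For PES1, 22 genes of the PeBoW complex and large subunit assembly gave 1 higher (background 5.75%) and 0 lower (2.66%), with a median difference of 0.45. Single differences in this list depended on BCB-positive oocyte 3. The PeBoW partners BOP1 and WDR12 differed by -0.45 and 0.73, or by -0.63 and -0.07 without that oocyte. No general rise of the list is therefore read from its median. NIP7, which acts in subunit assembly, was at 2.67, 1.39 and 3.18 FPKM against 4.06, 9.47 and 8.88 FPKM. Its log2 difference was 1.28, or 1.13 without BCB-positive oocyte 3. By share, DDX18 of this list had a transcript 33.2 points higher in BCB-positive oocytes (pooled SD 17.6), not ordered. For WDR12, GNL3 and MRTO4 the largest rise was 10.0, 1.48 and 3.46 points. For FAM136A, 18 genes of the mitochondrial intermembrane space gave 2 higher and 0 lower against the same background, with a median of 0.05. TIMM8B, an import chaperone, was at 30.0, 26.9 and 36.8 FPKM against 44.8, 81.5 and 40.0 FPKM. DIABLO, which binds inhibitor of apoptosis proteins, was at 5.98, 6.48 and 3.01 FPKM against 13.7, 9.45 and 9.36 FPKM.

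Of 10 NuRD genes compared, GATAD2B included, 1 was higher (background 5.75%) and 0 lower (2.66%), with a median of 0.34. RBBP4, a histone-binding subunit, was at 25.5, 30.1 and 18.1 FPKM against 33.3, 30.5 and 59.5 FPKM. Its difference was 0.69, or 0.39 and below 1.5-fold once BCB-positive oocyte 3 was left out. RBBP4 overlaps SYNC in the later annotation, so its value is uncertain. GATAD2A, the paralog of GATAD2B and looked at after its values were seen, had a transcript with a mean share 26.8 points higher in BCB-positive oocytes, less than its pooled SD of 32.8 points and not ordered. Among 12 PHD finger genes, 0 were higher and 0 lower, with a median of 0.40.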

How the data were processed

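Per the submitters' processing notes, BWA, Cufflinks, RSEM and the pig build Sscrofa10.2 were used; roles, order and versions were not given in the sources used here. Per the file headers, the authors deposited an expected count (estimated, not always whole) and an FPKM for each gene and transcript of each oocyte. FPKM values in the deposited files were scaled by the authors for length and mapped fragments and rounded to 2 decimals. Features without counts are not listed and were set to 0. Sums of transcripts matched the gene files within 0.02 FPKM and 0.55 counts.

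Groups came from the sample titles. Symbols came from a RefSeq table of Sscrofa11.1, used for names, neighbours and accessions only; 13936 genes matched by gene ID and 3 by accession. Shares, differences of class means and pooled SDs were computed with Python 3.11.15, numpy 2.4.6 and pandas 2.3.3. Intervals are 95% Wilson intervals on shares of counts. The pseudocount was 1 FPKM. The ordering rules were tested on simulated data. The simulated spread of shares was fixed and not matched to the 6 genes, so nothing is read from it for them. The genes and lists were chosen with earlier results of these data known. Named beside the 6 genes were the 2 nearest genes by transcript shares for each (1 is not reported here), and list members called by total or by share. Other pseudocounts, scalings, filters and share definitions, and leaving out each oocyte, were tried. List counts without BCB-positive oocyte 3 were added after seeing the data.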

Additional observations from a re-analysis of the deposited data

How the results depend on the processing

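No paired analysis was possible because no test was made and the shared replicate numbers name oocytes only. The genes were chosen for ordered differences of share, which keep their sign when an oocyte is left out, so that sign shows no stability. Of 66 recomputed differences of share, 1 moved by more than its gene's pooled SD. It was that of MGRN1, at 44.1 points with 1 FPKM added to every transcript against 64.5. The pooled SD was 25.7 to 34.7 points in PES1, FAM136A, PHF11 and GATAD2B, so wide moves stayed within it. PES1 went from 64.6 to 92.6 points without BCB-negative oocyte 1, and PHF11 from 61.0 to 41.9 without BCB-negative oocyte 3. In MGRN1, FAM136A and GATAD2B the favoured transcript was listed in no BCB-negative oocyte, so leaving out any of those could not change the difference. The differences gain no support from this count. Without each oocyte in turn the differences spanned 62.0 to 76.8 points in PAPOLA, 57.1 to 68.3 in MGRN1, 50.5 to 92.6 in PES1, 49.3 to 86.5 in FAM136A, 41.9 to 82.4 in PHF11 and 41.5 to 77.8 in GATAD2B.

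The gene total of PAPOLA differed by -0.049 under size factor scaling, and by -0.21 to 0.27 when single oocytes were left out. That of FAM136A differed by -0.080 to 0.39 when single oocytes were left out. The sign turned without BCB-negative oocyte 3 or BCB-positive oocyte 3 in both genes, and also without BCB-positive oocyte 2 in FAM136A.

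The 69 genes with an ordered share difference became 125 at a minimum of 1 FPKM, 23 at 20 FPKM and 41 at 30 points. They became 119 to 154 with an oocyte left out, when fewer oocytes have to be ordered. At 20 FPKM none of the 6 genes could be compared, since each had a lower total in some oocyte. The 661 genes higher by total became 411 at a mean of at least 5 FPKM and 826 to 1574 with an oocyte left out. The 306 lower genes became 192 and 506 to 795. Without BCB-positive oocyte 3 the higher genes became 3 in each of the MGRN1 and FAM136A lists and 0 in the NuRD list, and AIFM1 became the 1 lower gene of the FAM136A list. Depth limits PHF11 and PES1 most, with 70 and 87 counts in their shallowest oocytes.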

Other observations

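Besides PAPOLA and MGRN1, 4 genes had a most abundant transcript that was constant in each class and differed between them. RALY, an RNA-binding protein related to hnRNP C, had a transcript at 38.9%, 8.64% and 28.6% in BCB-negative and at 56.8%, 60.8% and 62.9% in BCB-positive oocytes. RPS6, a ribosomal protein of the small subunit, had one at 46.8%, 41.3% and 47.5% against 59.6%, 55.1% and 99.8%, with the highest value in BCB-positive oocyte 3. The other 2 genes had no symbol. In BCB-positive oocytes their transcripts with the largest rise had mean shares 39.3 and 15.7 points higher. Those with the largest fall changed by -31.8 and -30.5 points.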
